A study of Arabidopsis thaliana with 3 samples.

Results

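The photosystem core and electron transport genes described here are 35 nuclear genes of Arabidopsis thaliana. They encode 12 subunits of photosystem I, 11 proteins of photosystem II, 6 electron carriers, 2 subunits of the chloroplast ATP synthase and 4 proteins that regulate electron flow or membrane shape. The members were chosen by gene name and not by a measured level, but with earlier results of these data known. All 35 had at least 1 listed N6-methyladenosine (m6A) site, which the choice may have fixed. Together they held 428 of the 120269 sites of the series, which covers 15180 nuclear genes.

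The samples were whole seedlings of the wild-type accession Col-0, grown on plates of Murashige and Skoog medium in long days (16 h of light) at 22 °C and collected on day 7. They form 1 group of 3 biological replicates, with no treatment, mutant or second tissue. Polyadenylated RNA was analysed by CAM-seq, in which a chemical deamination turns unmodified adenosine into inosine, read as G, so that an A which persists marks m6A. The m6A level of a site is the share of its reads that kept the A. Each site has 1 pooled count for the 3 replicates, so no spread between plants can be given and no difference was tested. The Wilson 95% intervals printed with single levels cover counting error only. Of the marker genes of the plant's parts, 4 of 4 shoot genes and 4 of 5 root genes had a listed site, against 0 of 3 flower genes and 0 of 2 seed genes. A listed site needs reads and m6A together, so these counts are not expression levels.

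In the thylakoid membrane, photosystem II takes electrons from water, the cytochrome complex and the copper protein plastocyanin pass them on, and photosystem I hands them to ferredoxin, from which ferredoxin-NADP reductase makes NADPH. The proton gradient built on the way drives the ATP synthase. Most peripheral subunits of these complexes are encoded in the nucleus, whereas the reaction centre proteins are encoded in the chloroplast. m6A is written on messenger RNA by a methyltransferase complex, often near the stop codon and in the 3′ untranslated region (3′ UTR). It can act on the stability and processing of a transcript. The most frequent context is RAC (R is A or G, and the A is the site), which held 39.3% of all listed sites here.

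The strongest site of each of the 10 members with the highest levels is shown first, because these sites hold the highest levels of the set. Each sequence is the transcript strand over 21 bases with the site in the middle, and capitals mark the 5-letter motif centred on the methylated A. The letters were read from the RefSeq copy of the genome (TAIR10.1).
STN7: aaauccacAAACUugggaguc
PGRL1A: uacaugaaAGACCaaauucga
CURT1B: auuccucaAGACUauauauga
PSAE2: aaguuaacCAACAauucaucu
PETC: uguauaagCUACAuuucaucg
PSBS: aaggaaauGGACAgcuuaaau
LFNR1: uucaaucaAAACAuucaaaag
PSAH1: uacauuugAAACGuuuuuucu
PSAO: aucaaucaAAACAaagcuuuc
PSBQ2: cuuuagcaAAACAuuauauau

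All 10 lay in the 3′ UTR, 9 of them in a RAC context and that of PETC in UAC. LFNR1, PSAO and PSBQ2 shared the motif AAACA. Across the 35 members, the strongest site was RAC in 27 genes, of which 19 were AAC and 8 GAC, and it lay in the 3′ UTR in 31 genes, at a median of 82 nt after the stop codon (from 34 to 241 nt).

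The levels of the members were mostly low. The median over the 428 sites was 4.69% (95% interval of the median 4.3% to 5.59%), with quartiles of 2.64% and 13.8%, whereas the median over all listed sites was 21.8%. Levels above 50% were found at 19 member sites (4.44%, Wilson 95% interval 2.86% to 6.83%), against 24.2% of all listed sites. Levels below 5% were found at 219 member sites (51.2%), against 8.06% of all listed sites. A site above 50% was present in 11 of the 35 genes (31.4%), against 67% of all genes with a listed site. In 9 genes there was no site of 20% or more.

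**Figure D1:**
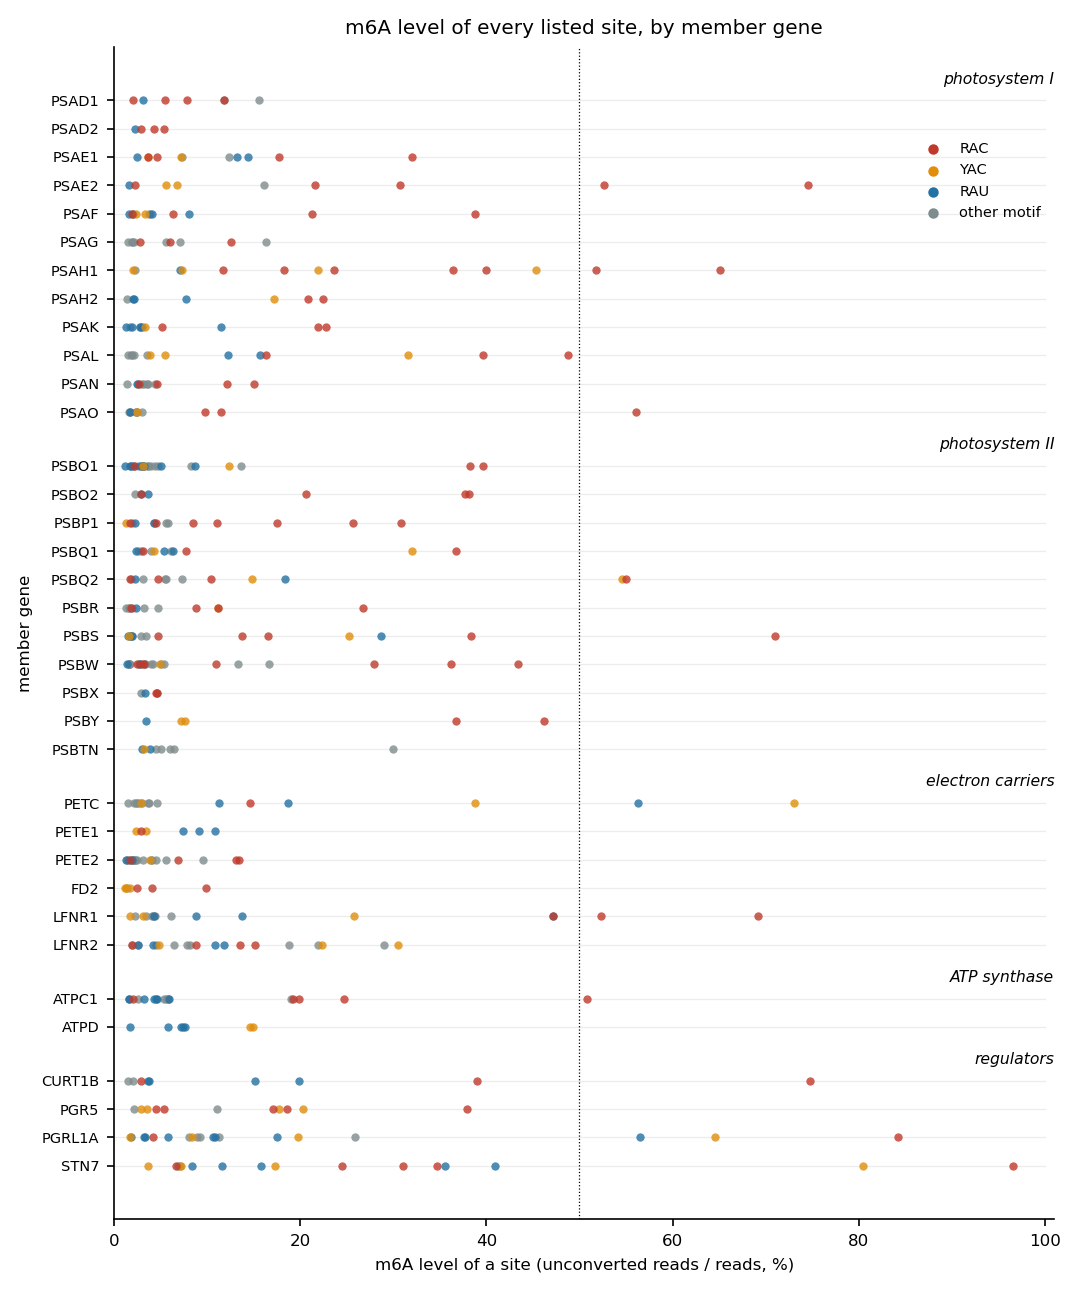
m6A level of each of the 428 listed sites (x axis, %), with 1 row per member gene, grouped by complex, and colours for the motif class. The dotted line marks 50%; 19 sites in 11 genes lie beyond it, and most points lie close to the left edge.

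Depth sets which levels can be listed, since the table holds a site only where its unconverted reads exceed a background of 1%. To be listed, a site with 20 reads had to reach 20%, a site with 100 reads 6.0%, a site with 1000 reads 2.2% and a site with 10000 reads 1.33%. The member sites had a median depth of 3162.5 reads, from 21 to 74220, whereas all listed sites had a median of 107 reads. Sites were therefore also compared above a minimum depth and within ranges of depth. Among sites with at least 1000 reads, 154 of 283 member sites were below 5% (54.4%), against 36.1% of all such sites, and 13 were above 50% (4.59%), against 14.6%. Among genes whose deepest listed site had at least 1000 reads, 10 of 33 members (30.3%) had a site above 50%, against 66.6% of 1502 genes. This minimum did not make the depths equal, since the median depth above it was 6584 reads over the member sites and 1952 reads over all sites, and the deepest site of these genes had a median of 17564 reads in the members and 2117.5 reads in all genes.

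Over all motifs the gap between the medians narrowed with depth and was not seen at 10000 reads or more. From 300 to fewer than 1000 reads, the median level was 3.64% over 81 member sites and 12.7% over all listed sites of that depth. From 1000 to fewer than 3000 reads it was 3.5% over 60 member sites and 9.44% over all sites, and from 3000 to fewer than 10000 reads it was 4.53% over 126 member sites and 9.04% over all sites. At 10000 reads or more it was 5.16% over 97 member sites (interval of the median 3.8% to 11.1%) and 4.34% over all 348 such sites (3.65% to 5.45%), of which the member sites are a part. For RAC sites alone the gap did not narrow steadily. From 20 to 99 reads the RAC medians were 34.7% over 5 member sites and 43.5% over all sites. From 300 to fewer than 1000 reads they were 2.96% over 11 member sites and 33.2% over all sites. From 3000 to fewer than 10000 reads they were 21.2% over 43 member sites and 31.5% over all sites. At 10000 reads or more they were 12.5% over 37 member sites and 10.3% over all sites. At the highest depths the intervals of the medians thus overlapped. The upper ends of the RAC levels were less alike at 10000 reads or more. Levels above 50% were found at 0 of the 37 member RAC sites and at 10 of all 119 (8.4%). At least 20% was reached by 29.7% of these member sites and 38.7% of all.

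**Figure D2:**
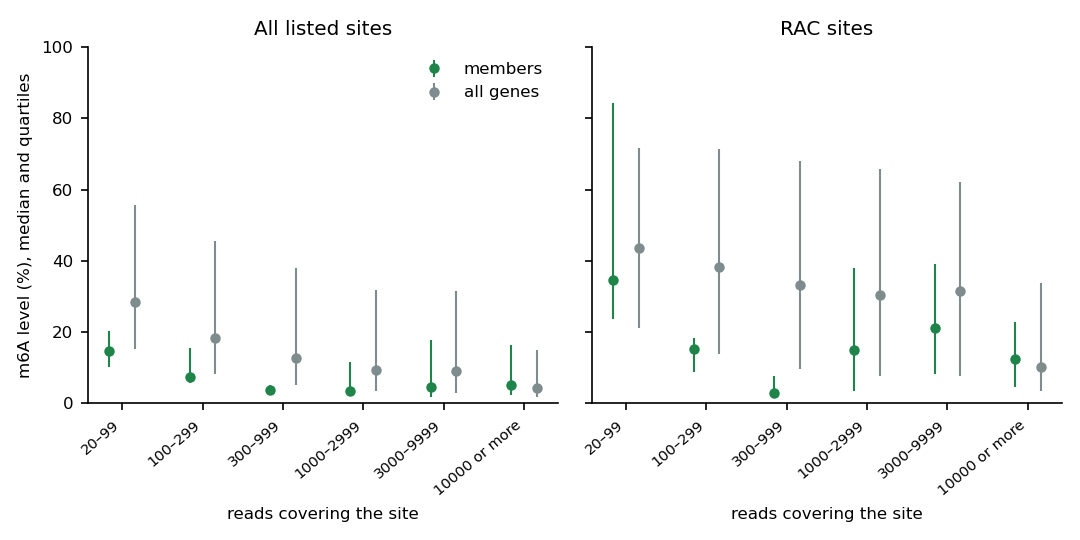
Median m6A level (y axis, %) with quartiles (bars) by the number of reads covering the site (x axis), for member sites and for all listed sites, in all motifs (left panel) and in RAC (right panel). Member medians lie below those of all genes below 10000 reads and beside them at 10000 reads or more.

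At 20% or more a site is listable whatever its depth. Levels of at least 20% were found at 73 member sites, with a median of 37.8% (interval of the median 31.6% to 39.7%), against 46.7% over all listed sites of at least 20%. RAC made up 67.1% of these member sites and 52.9% of all sites of at least 20%. Of the RAC adenosines in the annotated transcripts between 20 nt before and 180 nt after the stop codon, 100 of 140 were listed in the members (71.4%), and 44 were at 20% or more (31.4%). Over all genes with a listed site, 47.6% of such adenosines were listed and 34.8% were at 20% or more, and in genes whose deepest site had at least 1000 reads, 67.4% were listed and 42.5% were at 20% or more. The Wilson interval of the members' share at 20% or more, 24.3% to 39.5%, included the share over all genes and not that over the deeply read genes. It treats adenosines as independent although they share genes and libraries, so it is not a test of a difference. The shares over all genes also count adenosines with too few reads to be listed. The deepest site had a median of 151 reads over all genes and 16459 over the members.

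In photosystem I, levels differed widely between subunits (12 genes, 121 sites, median 4.64%). PSAE2 (AT2G20260), a subunit on the stromal side where ferredoxin docks, carried the strongest site, 74.6% (72.9% to 76.2%) over 2793 reads, at 77 nt after the stop codon (chromosome 2, position 8737721, plus strand, exon 3 of 3). PSAH1 (AT3G16140), a subunit at which the mobile antenna docks, reached 65.1% (63.8% to 66.5%) over 4920 reads at +114 (chromosome 3, position 5468556, minus strand), and had 7 sites of at least 20%, the highest number in a photosystem subunit. PSAO (AT1G08380), a small membrane subunit near PSAL, had a single strong site, 56.1% (55.1% to 57.1%) over 9507 reads at +70 (chromosome 1, position 2640934, minus strand). All its 10 other sites were below 12%.

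Lower maxima followed in the other photosystem I genes. PSAL (AT4G12800), which holds the docking side of the complex, reached 48.7% (47.9% to 49.5%). PSAF (AT1G31330), a subunit that helps to bind plastocyanin on the lumenal side, reached 38.8% (38.0% to 39.6%). Both sites were in AAC contexts. PSAE1 (AT4G28750) reached 32.0%, PSAK (AT1G30380), a membrane subunit on the antenna side, 22.8% and PSAH2 (AT1G52230) 22.5%. Below 20% were PSAG (AT1G55670), a relative of PSAK, PSAD1 (AT4G02770), the lumenal subunit PSAN (AT5G64040) and PSAD2 (AT1G03130). In PSAG and PSAD1 the highest values came from shallow sites in the 5′ UTR, 16.3% (8.51% to 29.0%) over 49 reads and 15.6% (6.86% to 31.8%) over 32 reads. In the 3′ UTR PSAG reached 12.5% at a GAC site with 40124 reads, and PSAD1 reached 11.8%. PSAN reached 15%, and PSAD2, a second gene for the ferredoxin-docking subunit PsaD, had 4 listed sites and a maximum of 5.38% (4.17% to 6.92%) over 1041 reads.

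Photosystem II was represented by 11 genes with 141 sites and a median level of 4.3%. PSBS (AT1G44575), the protein that senses lumen acidity and starts the dissipation of excess light as heat, carried the strongest site, 71.0% (69.5% to 72.5%) over 3545 reads at +69 (chromosome 1, position 16873263, plus strand), and a second site in AGACA, 14 nt upstream, was at 38.3%. PSBQ2 (AT4G05180), an extrinsic protein of the water-splitting complex, reached 55.0% (50.6% to 59.2%) over 513 reads at +161 (chromosome 4, position 2671932, minus strand) and 54.6% (53.7% to 55.5%) over 12089 reads at a GUACU site at +64. No other photosystem II site was above 50%.

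PSBY (AT1G67740) followed with 46.2% and PSBW (AT2G30570) with 43.4%, both in GAC contexts and both small membrane proteins. Among the extrinsic proteins that shield the manganese cluster, PSBO1 (AT5G66570) reached 39.6%, PSBO2 (AT3G50820) 38.1%, PSBQ1 (AT4G21280) 36.8% and PSBP1 (AT1G06680) 30.8%. PSBO1 had the largest number of sites of all members, 26, of which 24 were below 20%. In PSBTN (AT3G21055), a small lumenal protein, the strongest site, 30% (29.4% to 30.5%) over 26783 reads at +82, lay in GUAUA, outside RAC, YAC and RAU, and no RAC site was listed. PSBX (AT2G06520), another small membrane protein, had the lowest maximum of all members, 4.62%, although its deepest site had 29830 reads.

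PSBR (AT1G79040), a small photosystem II protein, and PETE2 (AT1G20340), the main plastocyanin gene, held the 5 most deeply read member sites. These are shown because their levels have the smallest counting error, and because 4 of them crowd within 11 nt of the PSBR 3′ UTR (chromosome 1, positions 29736862 to 29736872).
PSBR at +81: auguuguaAAACUcagacaua
PSBR at +87: uaaaacucAGACAuacuuuga
PSBR at +89: aaacucagACAUAcuuugaau
PSBR at +91: acucagacAUACUuugaauuu
PETE2 at +98: aauucuaaAGAGUguugaauc
The GAC at +87 was methylated at 26.7% (26.4% to 27.1%, 59365 reads). The AAC at +81 was at 8.82% (8.62% to 9.03%, 74220 reads) and the UAC at +91 at 11.1% (10.9% to 11.4%, 57327 reads). The CAU at +89, which sits between the GAC and the UAC, was at 1.28% (1.19% to 1.37%, 57437 reads). The AGAGU site of PETE2 was at 2.3% (2.16% to 2.44%, 46372 reads). At nearly equal depth, adenosines 2 nt apart thus differed by far more than the counting error.

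Among the electron carriers (6 genes, 86 sites, median 4.23%), the ends of the range stood side by side. PETC (AT4G03280), the Rieske iron-sulfur protein of the cytochrome complex, was methylated at 73.1% (72.3% to 73.8%) over 12827 reads at +79 (chromosome 4, position 1441796, plus strand), 38.8% at +95 and 56.3% (55.4% to 57.1%) over 13686 reads at +104. None of these 3 sites was RAC: the first 2 were UAC and the last was AAU. LFNR1 (AT5G66190), a leaf ferredoxin-NADP reductase, reached 69.2% (67.5% to 70.8%) over 3122 reads at +107 (chromosome 5, position 26451096, minus strand), and 4 more of its sites were at 20% or more. LFNR2 (AT1G20020), its paralog, reached 30.5% (28.6% to 32.5%).

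No listed site of the plastocyanin genes or of FD2 reached 20%. PETE2 had 21 listed sites with a maximum of 13.4% (13.1% to 13.8%) over 42346 reads, and PETE1 (AT1G76100), the minor plastocyanin gene, had 6 sites with a maximum of 10.9% (7.72% to 15.1%) over 276 reads. FD2 (AT1G60950), the main leaf ferredoxin gene, reached 9.86% (9.55% to 10.2%) over 33300 reads in AAACU, the motif that reached 96.6% in STN7.

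Of the ATP synthase genes (25 sites), ATPC1 (AT4G04640), which encodes the γ subunit that turns within the head of the enzyme, reached 50.8% (49.6% to 52.1%) over 6273 reads at +105, an interval that includes 50%. ATPD (AT4G09650), which encodes the δ subunit, reached 14.9% (14% to 15.9%) at a UAC site, with no RAC site listed.

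The 4 regulators had the highest median level among the groups of members (55 sites, median 10.9%), and 3 of them had a site above 50%. STN7 (AT1G68830), the kinase that phosphorylates the mobile antenna during state transitions, carried the highest level of all members, 96.6% (90.5% to 98.8%), with 85 of 88 reads unconverted at +151 (chromosome 1, position 25872503, minus strand). A further STN7 site at +137 was at 80.5% (66.0% to 89.8%) over 41 reads. No STN7 site had more than 305 reads, so its intervals were wide. PGRL1A (AT4G22890), which takes part in cyclic electron flow around photosystem I, had 84.2% (72.6% to 91.5%) over 57 reads at +241 (chromosome 4, position 12009488, plus strand), 64.5% (60.5% to 68.3%) over 575 reads at a GCACU site and 56.5% (52.8% to 60.1%) over 705 reads at an AGAUA site. CURT1B (AT2G46820), a protein that bends thylakoid membranes at the margins of the stacks, was methylated at 74.7% (73.6% to 75.8%) over 6479 reads at +215 (chromosome 2, position 19245085, plus strand). PGR5 (AT2G05620), the partner of PGRL1A, reached 37.9% (35.6% to 40.3%). Depth was lower here than in the other complexes: the deepest sites of these 4 genes had a median of 4299 reads, against 20397 in the photosystem II genes and 16312.5 in the photosystem I genes. Over all their listed sites the median depth was 343 reads, against 3506 in photosystem II and 4224 in photosystem I. Sites of at least 20%, listable at any depth, gave another order. Their median was 42.9% in the carriers, 39.0% in the regulators and 37.8% in the ATP synthase genes. It was 36.8% in photosystem II and 34.2% in photosystem I. The part of depth in the order of the medians over all sites was not tested.

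The levels of all listed sites were summed for each gene, and sites with few reads counted in full. The sum is a mean number of methylated adenosines per transcript copy only if every copy carries all those sites. Across the 35 genes the sum had a median of 1.14 and ran from 0.149 in PSAD2 to 4.28 in STN7. Over all genes with a listed site the median was 2.2, and over genes with a deepest site of at least 1000 reads it was 2.74. Spearman's rho between the highest level and the depth of the deepest site was -0.19 over the 35 members and 0.19 over all genes with a listed site. Among genes with a deepest site of at least 1000 reads it was -0.21 over 33 members and -0.14 over 1502 genes. These are descriptions over genes, which share the libraries.

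Most sites lay downstream of the stop codon. Of the 428 member sites, 307 lay in the 3′ UTR (71.7%), against 92.4% of all placed sites, 87 in coding sequence and 34 in the 5′ UTR (7.94%), against 0.535% of all placed sites. The window from 20 nt before to 180 nt after the stop codon held 281 sites (65.7%), against 72% of all placed sites. These shares also moved with depth. Among sites with at least 1000 reads, the 3′ UTR held 84.1% of the member sites and 94.4% of all placed sites, the 5′ UTR held 1.06% of the member sites (3 sites) and 0.374% of all placed sites, and the window held 83.4% of the member sites and 85.9% of all placed sites. Sites in 3′ UTRs had a median of 7.19% and reached 96.6%, those in coding sequences had a median of 3.02% and reached 18.8%, and those in 5′ UTRs had a median of 3.45% and reached 19%. All 73 sites of at least 20% lay in the 3′ UTR, from 7 to 256 nt after the stop codon, and 58 of them (79.5%) lay from 30 to 150 nt after it. For all listed sites of at least 20% that share was 55.2%, and for those with at least 1000 reads it was 77.4%. The 3′ UTRs of the members had a median length of 234 nt, against 268 nt over all genes with a listed site.

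**Figure D3:**
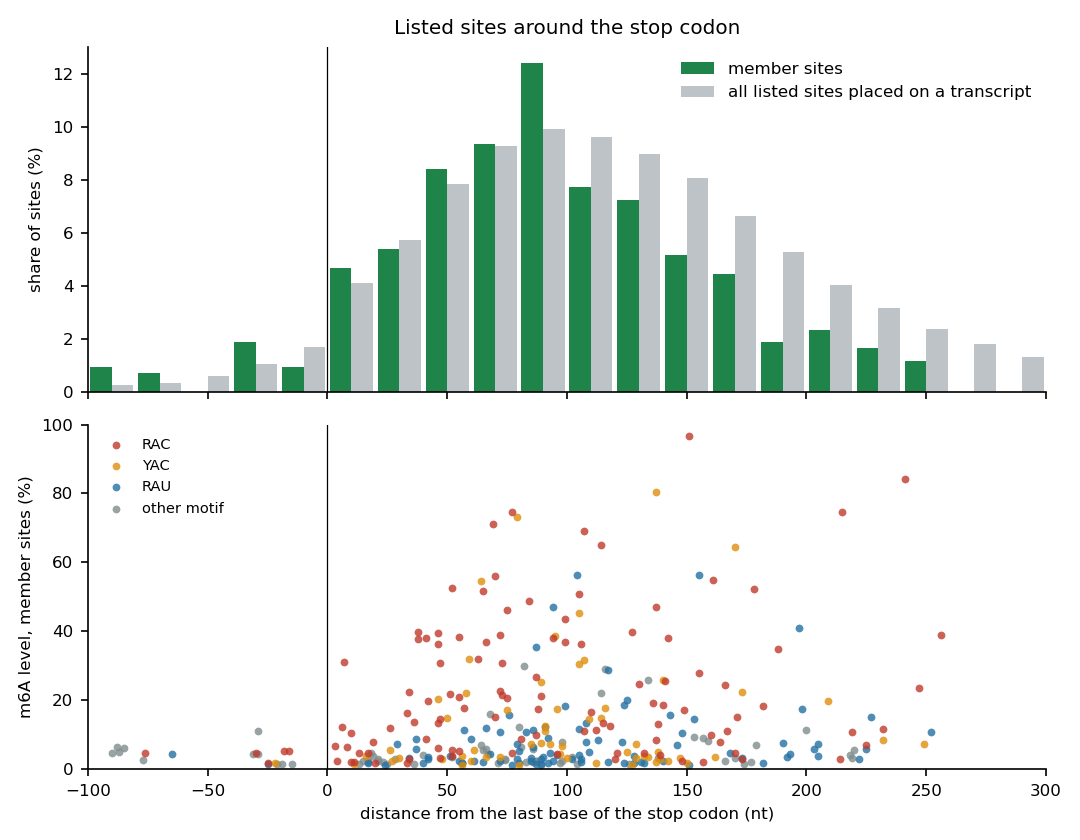
Upper panel, share of sites (y axis, %) in bins of 20 nt by distance from the last base of the stop codon (x axis, nt), for member sites and for all listed sites placed on a transcript. Lower panel, m6A level (%) of the member sites at the same distances, coloured by motif class; the sites of at least 20% lie between 7 and 256 nt, and none lies before the stop codon.

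Motif use separated the strong sites from the weak ones. RAC held 122 of the 428 member sites (28.5%), against 39.3% of all listed sites, YAC (Y is C or U) held 59, RAU held 95, and 152 sites (35.5%) lay in other motifs, against 11.3% of all listed sites. Depth moved these shares: among sites with at least 1000 reads, RAC held 33.6% of the member sites and 30.5% of all sites, the opposite order, and other motifs held 25.8% of the member sites and 17.1% of all sites. The median level of the members was 14.2% in RAC, 6.75% in YAC, 4.22% in RAU and 3.38% in other motifs. At least 20% was reached by 49 RAC sites (40.2%), 14 YAC sites, 6 RAU sites and 4 sites in other motifs. Among sites with at least 1000 reads, the RAC median was 15% over 95 member sites (interval of the median 11.2% to 21.6%) and 29.4% over all 2499 such sites (27.2% to 31.7%). At that depth AAC had a median of 17.0% over 68 member sites and 27.3% over all genes, and GAC had a median of 13.4% over 27 member sites and 34.7% over all genes.

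A shared motif did not fix the level. The 17 AAACU sites of the members ran from 1.99% to 96.6%, the 17 AAACA sites from 2.48% to 69.2%, the 10 AGACU sites from 1.89% to 74.7% and the 10 GUACU sites from 1.60% to 54.6%. Medians were 19.8%, 18.6%, 20.1% and 6.31%, in the same order. Only the range of AAACU, among these 4 motifs, came close to the whole range of the members, from 1.19% to 96.6%.

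The 152 member sites in other motifs differed from the RAC sites in place and in depth. Of these, 126 (82.9%) had the 3-letter motifs AAA, GAA, AAG or GAG, and 97 lay outside the 3′ UTR. They sat in purine runs, with a median of 71.4% A or G over the 21 bases around the site, against 52.4% for RAC sites. They also lay where few reads were listed: the median depth was 4.77% of that of the deepest site of the same gene, against 46.1% for RAC sites, and 98 of the 152 (64.5%) were below 10% of it, against 18% of RAC sites. In PETC, 6 such sites between 15 and 23 nt after the stop codon had 730 to 2059 reads and levels of 2.2% to 4.7%, whereas the GAC site at +47 had 15205 reads.

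Over all genes with a deepest site of at least 1000 reads, sites in other motifs had a median depth of 29.6% of the deepest site of the gene and a median purine share of 57.1%. The corresponding values for members of that depth were 4.73% and 71.4%. The authors' read filter removed reads with several unconverted adenosines, and whether this filter, local conversion or mapping had a part in the low-depth purine sites was not tested. Without any of the sites in other motifs, deep or shallow, the members held 276 sites with a median level of 7.48%. Of these, 82.6% lay in the window around the stop codon.

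**Figure D4:**
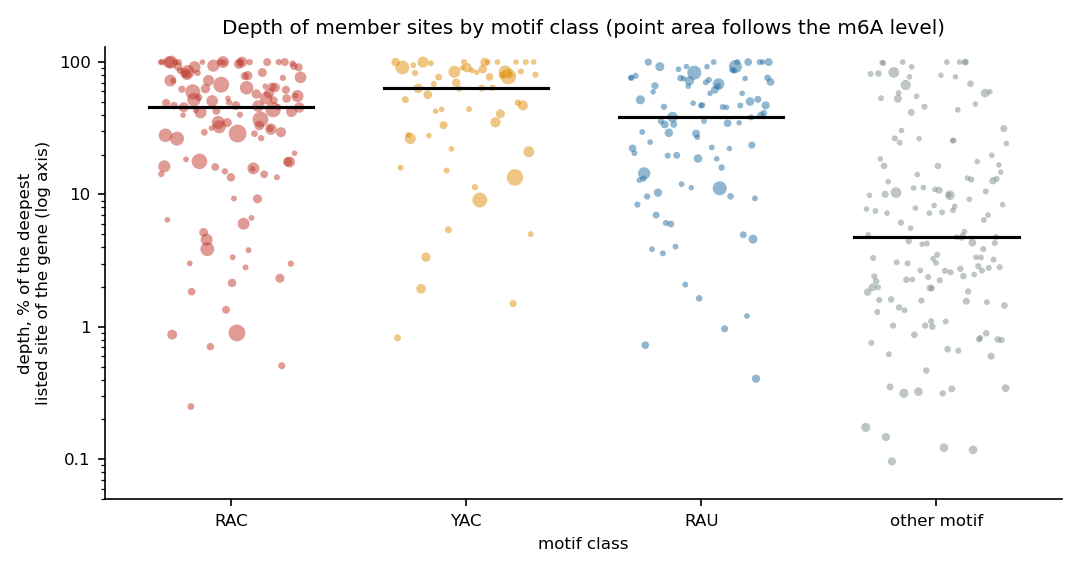
Depth of each member site as a share of the deepest listed site of its gene (y axis, %, log axis) by motif class (x axis); point area follows the m6A level and black lines are medians. The medians were 46.1% for RAC, 64.0% for YAC, 38.4% for RAU and 4.77% for other motifs.

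The members include 7 pairs of close paralogs, so that sites at aligned positions could be compared. The last 200 coding bases and the 3′ UTR of both genes were aligned, and 14 pairs of aligned adenosines were listed in both genes. Over these bases the 2 genes of a pair were 68.0% to 83.4% identical. Each pair of genes also had aligned adenosines listed in 1 gene only, 2 to 8 in the first gene and 1 to 7 in the second. These are left out below, so the differences describe only adenosines listed in both genes. The Newcombe 95% interval of the difference in level excluded 0 in 12 of the 14 pairs. The median size of the difference was 9.68 percentage points and the largest was 38.7. Of the 21 bases around the sites, 3 to 15 differed between the paralogs, so only the 5 pairs with at most 8 different bases are shown.
PSAE1 at +63: cuugacccAAACCguauguac
PSAE2 at +52: cuuaaacaAAACCguauguac
PSAE1 at +72: aaccguauGUACCgcaaaagu
PSAE2 at +61: aaccguauGUACCaaaaaguu
PSAE1 at +80: guaccgcaAAAGUuuaccaau
PSAE2 at +68: uguaccaaAAAGUuaaccaac
PSAE1 at +85: gcaaaaguUUACCaauuauuu
PSAE2 at +73: caaaaaguUAACCaacaauuc
PSAH1 at +65: aauacugcAAACCcuuuuaag
PSAH2 at +55: aauucuauGAACCcuauuuau

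The AAACC site, with 3 different bases around it, was at 32.0% (31.2% to 32.7%, 14538 reads) in PSAE1 and at 52.6% (51.0% to 54.3%, 3493 reads) in PSAE2, a difference of -20.7 points (-22.5 to -18.9). The following GUACC site was at 3.65% in PSAE1 and 5.62% in PSAE2 (difference -1.98 points, -2.97 to -1.09). The AAAGU site was at 12.3% in PSAE1 and 16.1% in PSAE2 (-3.73 points, -5.37 to -2.18). At the fourth position the motif itself changed: UUACC in PSAE1 was at 7.19% and UAACC in PSAE2 at 21.6% (-14.4 points, -16.1 to -12.8). Each of these 4 positions was thus higher in PSAE2, and the rank of the 3 positions with an unchanged motif was the same in both genes. PSAE2 was read less often there, with 2409 to 3493 reads against 10418 to 14538 in PSAE1. In the PSAH pair, AAACC in PSAH1 was at 51.8% (50.5% to 53.2%) and GAACC in PSAH2 at 20.8% (20% to 21.6%), a difference of 31 points (29.4 to 32.6).

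The 9 pairs with more different bases are given as values only. In PSAE1 and PSAE2, AAACU was at 4.62% and AGACA at 2.21%. In PSAD1 and PSAD2, GGAUU was at 3.07% and GGAUG at 2.29%, a difference whose interval included 0. In PSAH1 and PSAH2, CAACA was at 36.4% and AAACU at 22.5%. At these PSAE and PSAH positions the level was thus higher in PSAE1 and PSAH1 beyond counting error. For PSAE this is the opposite of the order at the positions shown above. In PSBO1 and PSBO2, UAACA was at 39.6% and AAACA at 37.8%, a difference of 1.85 points (0.346 to 3.35), and GAAUU was at 5.09% and AAAUA at 3.62%, with an interval that included 0. In PSBQ1 and PSBQ2, AAAUU was at 2.36% and AAAUC at 18.4%. In PETE1 and PETE2, GGAUU was at 7.38% over 271 reads and GAAUC at 1.96% over 42767 reads. In LFNR1 and LFNR2, AAACA was at 69.2% and AUACU at 30.5%, and CUACU was at 25.7% and UUACU at 4.86%. The PSBO genes thus had nearly the same level at their aligned strong site, and the LFNR genes did not.

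**Figure D5:**
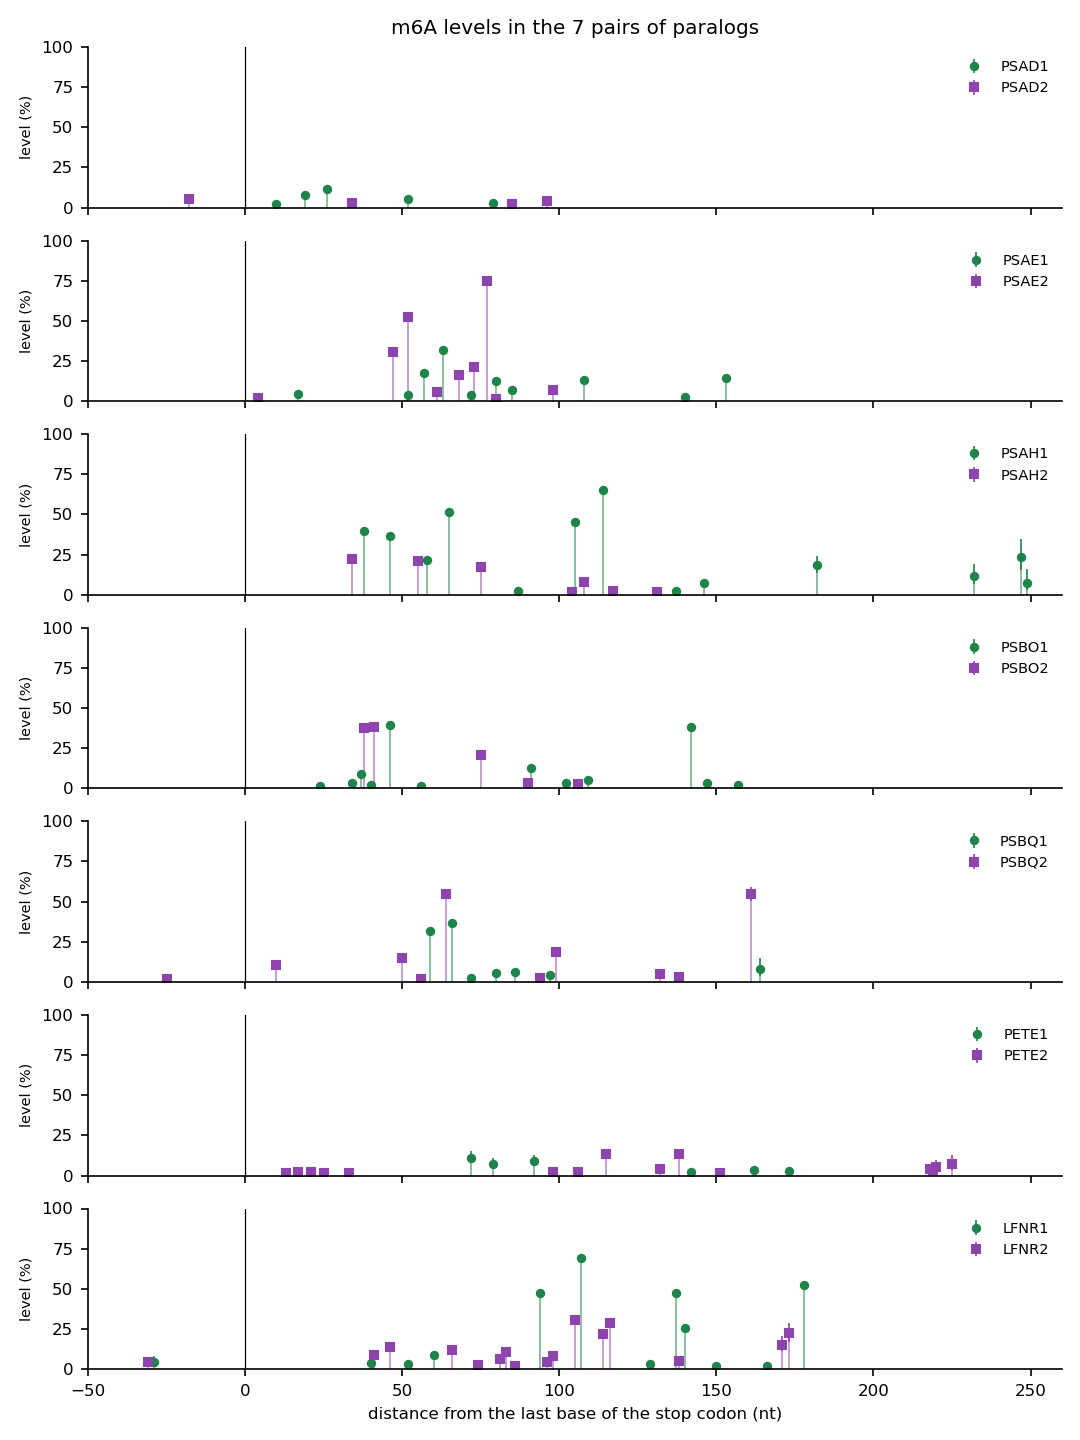
m6A level (y axis, %) of the sites near and after the stop codon in the 7 pairs of paralogs, by distance from the last base of the stop codon (x axis, nt); vertical bars are Wilson 95% intervals, mostly smaller than the symbols. The aligned AAACC sites were at 32.0% in PSAE1 and 52.6% in PSAE2. The aligned sites of LFNR1 (AAACA, 69.2%) and LFNR2 (AUACU, 30.5%) differ in motif. The sites of PSAD1, PSAD2, PETE1 and PETE2 stay below 20%.

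An annotated gene on the opposite strand overlaps 6 members, with 45 sites within the overlap. They include the strongest sites of PSAE2, PSAH1, PSAH2, PSAG and LFNR1. The table gives each of the 428 sites on the strand of its member, but how strand entered the counting is not given in the sources used here. The 31 deposited bases around each of the 428 sites occurred once in the reference genome. Uniqueness after conversion of A to G, which makes paralogs more alike, was not tested.

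Other nuclear and chloroplast genes of the same machinery gave the following levels. Of 14 further nuclear genes of these complexes and their regulators, 13 had listed sites (147 sites, median 8.93%), and 8 of the 13 had a site above 50%. The highest were PGRL1B (100%, in a gene whose deepest site had 493 reads), CURT1C (86.7%), TAP38 (83.2%), the phosphatase that opposes STN7, PSB28 (76.3%) and STN8 (74.7%), a kinase of photosystem II core proteins. Of the 21 light-harvesting antenna genes, 20 had sites (164 sites, median 5.57%), and 3 had a site above 50%. Motifs other than RAC, YAC and RAU held 28.6% of the sites of the further nuclear genes and 28.7% of the antenna sites. The 3′ UTR held 74.1% and 73.2%, in the same order. In 5 genes of Rubisco small subunits and Rubisco activase, other motifs held 61.2% of 85 sites and the 3′ UTR 37.6%. Their median level was 2.41%. The motif and 3′ UTR shares of the members were thus not particular to them. Of the 32 chloroplast-encoded subunit genes of these complexes, only atpE had a listed site in its coding sequence, at 1.94% (31 of 1600 reads). The RNA was selected for poly(A) tails, which mature chloroplast transcripts mostly lack, and the part of that selection in this count was not tested.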

How the data were processed

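m6A was measured by CAM-seq in polyadenylated RNA of 3 seedling samples that form 1 group. Per the study's methods, the authors trimmed reads with Cutadapt, took a molecular barcode from read 1, mapped to TAIR10 with hisat2-3n and removed reads with many mismatches or with more than 3 unconverted adenosines or a large share of them. That filter can lower levels where methylated sites crowd. Versions are not given in the sources used here. The deposited table holds 2 raw counts per site, the reads covering the adenosine and the unconverted reads, pooled over the samples. It also holds the authors' p-value from a binomial test against a background of 1%, and no p-value in it exceeded 9.99e-04 and no depth was under 20. Recomputed p-values of the member sites differed by a relative 5.34e-12 at most.

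Levels were computed as unconverted reads over depth, in percent. Regions, exons and distances came from the RefSeq annotation of TAIR10.1, on the transcript with the longest coding sequence. The 31-base contexts of all 428 member sites were identical in the genome (417) or in that transcript. Intervals are Wilson 95% for levels, Newcombe for differences and binomial order-statistic intervals for medians; on simulated data they covered 95.0%, 95.0% and 96.2%. Paralogs were aligned globally with Biopython 1.88 (match 2, mismatch -1, gap opening -5, gap extension -1, free end gaps). Python 3.11.15, pandas 2.3.3 and SciPy 1.17.1 were used. With 1 pooled count per site no test was possible. Members and lists were chosen with earlier results of these data known. Sites named in full were the strongest site of the 10 members with the highest levels, the 5 deepest member sites and the aligned paralog sites, whose sequences are shown only for the 5 most alike pairs, a limit set after the alignments were seen. Alternatives for depth, p-value, motif, window, transcript and gene were tried.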

Additional observations from a re-analysis of the deposited data

How the results depend on the processing

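Of 68 alternative values, 58 stayed within the interval of the reported value or within 1.5 times a reported count. They include every result at a depth of at least 100 reads, and every result without PSBO1, the member with the most sites, or without PSBR, the member with the deepest site. They also include every result with sites named with several genes kept, or with repeated contexts left out. Both settings left the same 428 member sites, so those values could not differ and say nothing on robustness. With p-values below 0.0001, the 3′ UTR share of the member sites was 77.6% and the share in the window around the stop codon 71.6%. Summing unconverted reads over summed depth gave a level of 11.1% in place of the median of 4.69%. A window ending 100 nt after the stop codon held 41.4% of the sites. Keeping RAC, YAC and RAU sites alone, an alternative chosen after seeing the data, left 276 sites with a median of 7.48%, of which 6.88% were above 50%, 44.2% were RAC, 91.3% lay in the 3′ UTR and 82.6% in the window. Aligning whole transcripts gave 15 paralog site pairs in place of 14. No paired analysis was possible because the 3 replicates are pooled in 1 count per site. Depth limits the weak sites, since levels under 2.2% cannot be listed below 1000 reads, and STN7 and PETE1, whose sites had at most 305 and 800 reads, may hold weak sites that are not listed.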
